A study of Mus musculus with 53 samples.

Results

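The Id proteins, the E-proteins and the Hes and Hey repressors are helix-loop-helix regulators that meet the lineage factors Atoh1 and MyoD at the level of protein partnership or transcription. The 10 genes described here are Id1, Id2, Id3 and Id4, the E-protein genes Tcf3, Tcf4 and Tcf12, and the repressor genes Hes1, Hes5 and Hey1. They were chosen by name as a family of regulators, with earlier results of these data known. All 10 were present among the 55573 genes of the bulk tables and among the 57010 genes of the single-cell matrices.

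E-proteins bind DNA as partners of tissue-restricted basic helix-loop-helix activators, such as Atoh1 in granule cell progenitors and MyoD in muscle. Id proteins lack the DNA-binding basic region and hold E-proteins in inactive pairs, and their genes are known targets of BMP signalling through SMAD proteins. Hes and Hey proteins are DNA-binding repressors, and Hes proteins recruit Groucho corepressors. Several Hes and Hey genes are direct targets of Notch acting through RBPJ. In the cerebellum, granule cell progenitors of the external granule layer express Atoh1 and then exit the cell cycle to become granule neurons, while Bergmann glia and other astroglia are sites of Notch signalling.

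The study deleted Insm1, which encodes a zinc finger repressor of neurogenic progenitors, or Tead1 together with Tead2, which encode the DNA-binding partners of the Hippo pathway coactivators, in the developing mouse cerebellum. Mutants carried Atoh1Cre, a Cre recombinase expressed from Atoh1 regulatory sequence and so active mainly in the granule cell lineage, with Insm1fl/fl or with Tead1fl/fl; Tead2fl/fl. Controls carried the same floxed alleles without Cre, so floxed alleles were shared and Cre was not. Bulk RNA-seq of pups at postnatal day 2 (P2) compared 4 controls with 4 mutants for Insm1, and 3 controls with 4 mutants for Tead1/2. The alleles were labelled as separate batches, so that each mutant group was compared only with its own controls. Cells taken at postnatal day 7 (P7) were sequenced singly in 10 libraries of 1 cerebellum each, 2 controls and 3 mutants for each allele, and library number 1 of each group held all lobules while the others were made without lobules IX and X. The P7 libraries were deposited as a single sample of mixed genotype, and the genotype of each was taken from the library names in the cell metadata.

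The P2 libraries held between 28066600 and 64518800 expected counts. After filtering, 77306 of 79838 cells were kept at P7, with 84623600 to 192118000 unique molecular identifiers (UMIs) per library, and no cell barcode was shared between libraries. Barcodes that may hold more than 1 cell were scored with the doublet caller Scrublet, and the highest scores of each library were left out, at most 4% of its cells (2.34% to 3.74%, since scores tied at the limit were kept); values with the caller's own, stricter threshold are given where they change a call. A gene is called where its adjusted p was under 0.05. Insm1 fell in the P2 Insm1 mutants from between 30.8 and 71.9 CPM (counts per 1000000 counts of the library or cell group, with totals scaled by TMM factors for bulk, whole-cerebellum, granule lineage and astroglial-like sums and unscaled for clusters, the levels across cell classes and the marker lists in astroglial-like cells) in the controls to between 8.44 and 16.1 CPM in the mutants (log2 change -1.91, SE 0.30, adjusted p 0.0194 by edgeR). Tead2 was at 22.3 to 25.7 CPM in the P2 Tead1/2 controls, at 17.4 to 19.5 CPM in mutants 1 to 3 and at 25.9 CPM in the library labelled Tead1/2 mutant 4. With all 4 mutants neither Tead2 (log2 change -0.22, adjusted p 0.314 by edgeR) nor Tead1 (-0.09, adjusted p 0.746) was called at P2. That library also lay among the controls for Hey1 and for a list of 22 skeletal muscle genes (43.2 CPM summed, against 45.0 to 48.7 CPM in its controls and 211 to 280 CPM in mutants 1 to 3). The P2 Tead1/2 changes of the members are therefore given with and without it. At P7, Insm1 was at 58.4 and 56.8 CPM in Insm1 controls and between 5.73 and 14.4 CPM in mutants over all cells. Tead2 fell in the Tead1/2 mutants from 30.2 and 31.8 CPM to between 7.16 and 9.09 CPM, while Tead1 reads were higher (1127 to 1324 CPM, against 631 CPM in both controls). Whether the Tead1 reads cover the deleted exons is not given in the sources used here, so they do not check that deletion.

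The promoters of Hes5 and Id4 are shown because both genes were called higher in astroglial-like cells at P7 (Id4 in both mutants, Hes5 in Insm1 mutants, and neither with the doublet caller's own threshold), and because both carry the letters bound by RBPJ, the Notch effector. RefSeq start sites on build GRCm38.p6 were used for 6 of the 10 members. No start site was held for Id1, Hes1 and Hey1, and Tcf4 was left out of the scan. The 250 bases before the start of each gene follow, 5′ to 3′ on the gene's plus strand, with TGGGAA (the RBPJ core) and GGAATG (the TEAD core) in capitals (as TTCCCA and CATTCC where the match is on the minus strand).
Hes5, chr4:154960673-154960922: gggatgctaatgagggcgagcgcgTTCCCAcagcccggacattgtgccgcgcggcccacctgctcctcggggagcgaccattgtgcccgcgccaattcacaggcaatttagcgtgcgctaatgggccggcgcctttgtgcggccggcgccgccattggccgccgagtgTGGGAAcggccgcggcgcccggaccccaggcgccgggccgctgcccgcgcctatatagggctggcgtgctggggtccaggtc
Id4, chr13:48260866-48261115: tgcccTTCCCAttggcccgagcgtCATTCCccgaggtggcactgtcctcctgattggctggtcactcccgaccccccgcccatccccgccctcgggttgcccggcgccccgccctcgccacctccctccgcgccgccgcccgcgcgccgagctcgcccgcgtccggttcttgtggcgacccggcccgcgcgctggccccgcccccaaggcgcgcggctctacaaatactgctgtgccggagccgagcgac

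The Hes5 promoter held TGGGAA on both strands, at positions -226 and -82 from the start site. The Id4 promoter held TGGGAA at -245 and GGAATG at -226, both on the minus strand, the Id3 promoter held GGAATG at -203 and 1 of 3 Tcf12 promoters, the one at chr9:71896047-71896346, held it at -150. Of 32851 promoters of 300 bases (250 before the start and 50 after it), 25.6% held TGGGAA at least once, 3.8% held it 2 or more times and 14.7% held GGAATG. The motifs do not share bases in these windows, and a match describes letters only.

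At P2, in dissociated cerebellum as a whole, none of the 10 members passed the test in Insm1 mutants, and the largest difference was a lower level of Hey1, a repressor of the Hey family. Hey1 was at 48.4, 47.8, 67.7 and 62.1 CPM in the 4 control libraries, while the 4 Insm1 mutants had 39.8, 31.0, 39.4 and 34.7 CPM. Every mutant lay under every control. The difference was -0.64 on the log2 scale (SE 0.13, n = 4 and 4), with an adjusted p of 0.0661 by edgeR's quasi-likelihood test with Benjamini-Hochberg adjustment over all genes. In bulk tissue, fewer cells of a type and less RNA per cell cannot be told apart.

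By that test 0 of 10 members were called, where 135 of 19582 genes were called (0.689%). At an unadjusted p under 0.05, 4 of the 10 members differed (Hey1, Id4, Hes5 and Tcf3), beside 1763 of 19582 genes (9%). DESeq2 called 312 of the same 19582 genes and 2 members, Hey1 (adjusted p 0.000961) and Id4 (adjusted p 0.0412). Id4, which in neural tissue marks astroglial and progenitor cells, was at 66.8, 74.1, 67.0 and 66.0 CPM in controls and at 80.6, 80.4, 76.2 and 79.3 CPM in mutants, without overlap. Hes5, a Notch target of radial glia, was at 34.5, 38.3, 46.3 and 35.6 CPM in controls and at 65.7, 45.3, 50.5 and 49.6 CPM in mutants, and mutant 2 lay inside the range of the controls.

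Among the E-proteins, Tcf3, whose products are E12 and E47, was at 84.5, 72.7, 72.7 and 79.9 CPM in Insm1 controls and at 60.8, 67.8, 63.5 and 68.8 CPM in mutants. The groups did not overlap, and the change was -0.24 on the log2 scale (SE 0.07) with an adjusted p of 0.27 by edgeR. The values of Tcf4, Tcf12, Id1, Id2, Id3 and Hes1 overlapped between the groups, with log2 differences between -0.13 and 0.29 and adjusted p-values of 0.576 or more by edgeR. Summed CPM of 14 astroglial markers was 4103 to 4552 in controls and 4555 to 5310 in mutants, and that of 12 granule progenitor markers was 1433 to 1508 in controls and 1252 to 1305 in mutants. The 22 skeletal muscle genes summed to 36.3 to 63.3 CPM in controls and 196 to 322 CPM in mutants. The part of these markers in the member differences was not tested.

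In Tead1/2 mutants at P2, Hey1 was again the member that differed most, in mutants 1 to 3. It was at 58.5, 70.1 and 75.1 CPM in the 3 controls, at 35.0, 36.6 and 30.8 CPM in mutants 1 to 3 and at 66.0 CPM in the library labelled mutant 4. With all 4 mutants the log2 change was -0.70 (SE 0.22, adjusted p 0.139 by edgeR). Without the library labelled mutant 4 it was -0.99 with an adjusted p of 0.000771 by edgeR, a call. The Hey1 level of that library was among the reasons for giving values without it. This adjusted p is therefore not independent of that choice.

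With all libraries 0 of 10 members and 0 of 20247 genes were called by edgeR (0%), while 4052 genes (20%) and 4 members (Id2, Tcf4, Hes5 and Hey1) had an unadjusted p under 0.05. DESeq2 called 960 of the same 20247 genes and 1 member, Id2 (adjusted p 0.0265). Without the library labelled mutant 4, edgeR called 646 genes (400 higher, 246 lower) and Hey1 alone of the 10. Id2, a gene of postmitotic neurons as well as progenitors, was at 177, 177 and 176 CPM in controls and at 208, 191, 197 and 199 CPM in mutants, each above every control. Its log2 change was 0.17 (SE 0.05, adjusted p 0.129 by edgeR). Tcf4, mutated in the human Pitt-Hopkins syndrome, was at 515, 524 and 478 CPM in controls and 442, 422, 477 and 482 CPM in mutants, and mutant 4 lay within the control range. Hes5 was at 44.5, 46.0 and 40.6 CPM in controls and 61.3, 60, 45.6 and 48.1 CPM in mutants. Without the library labelled mutant 4 the log2 changes were 0.17 for Id2 (adjusted p 0.138), 0.35 for Hes5 (0.110) and -0.18 for Tcf4 (0.168), by edgeR. Those of Id1, Id3, Id4, Tcf3, Tcf12 and Hes1 lay between -0.04 and 0.17 with all libraries (adjusted p 0.375 or more by edgeR) and between -0.06 and 0.22 without it (0.246 or more). The difference between the effects of the 2 deletions passed the test for no member (0 of 20837 genes, 0% by edgeR; 6.89% of genes and only Tcf3 among the members at an unadjusted p under 0.05; 0 members by DESeq2). Without the library labelled mutant 4 that test also called 0 genes, no member had an unadjusted p under 0.05, and the difference for Hey1 was 0.35 (adjusted p 0.774 by edgeR), against 0.05 with it.

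**Figure D1:**
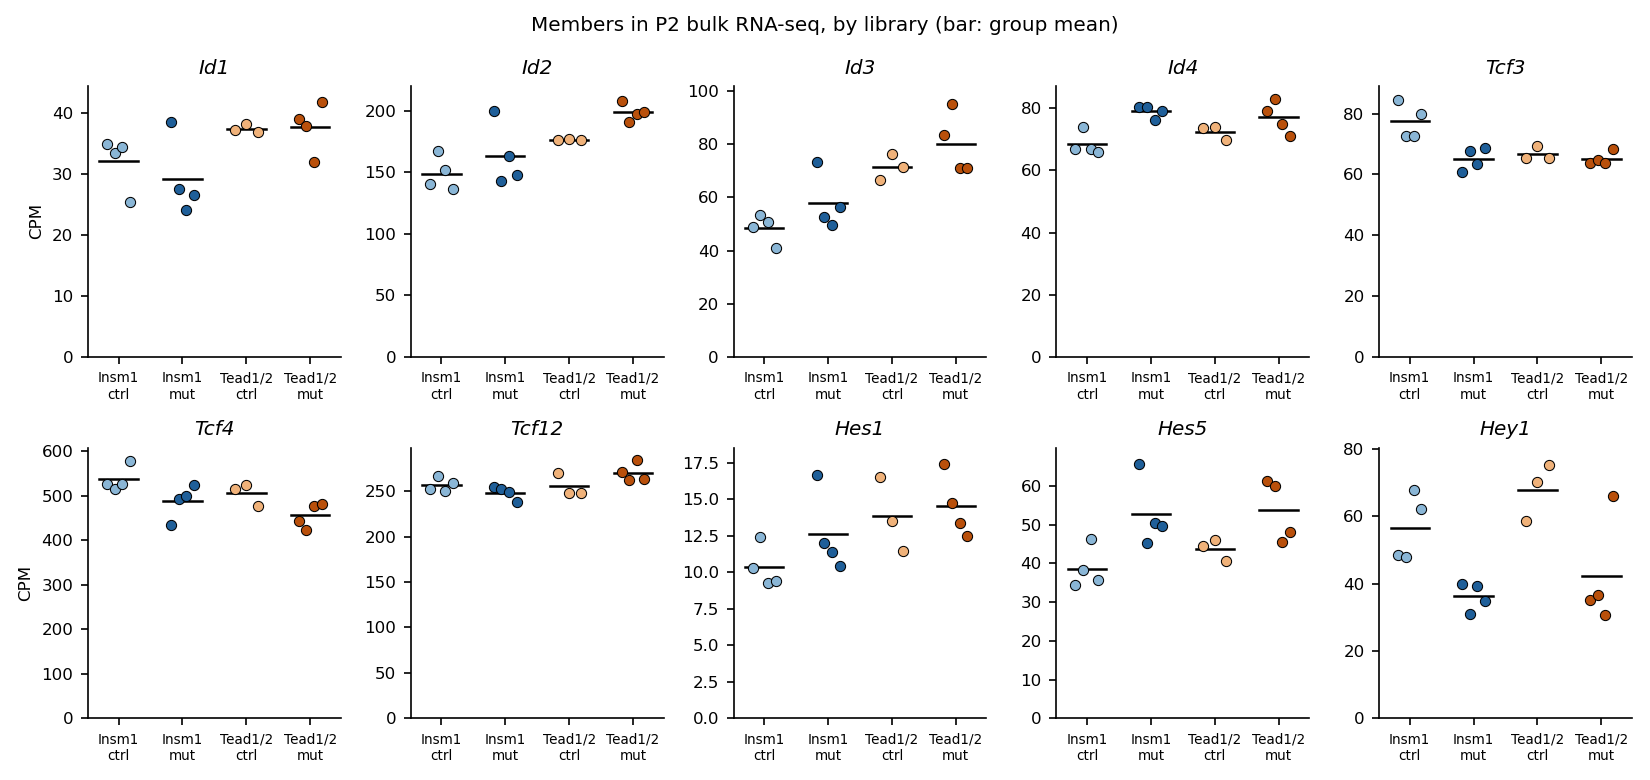
CPM of the 10 members at P2, 1 panel per gene, with 1 point per library in 4 groups and a bar at the group mean. Hey1 is lower in every Insm1 mutant than in every Insm1 control, and the library labelled Tead1/2 mutant 4 sits at 66.0 among the Tead1/2 controls.

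Summed over all cells of a cerebellum at P7, Hey1 fell in both mutants, together with Tcf3, Tcf4 and Id2, while Hes1 and Id4 rose. Insm1 controls had 18.9 and 21.6 CPM of Hey1, and the mutants 10.2, 7.91 and 7.71 CPM. In the Tead1/2 set it was at 21.0 and 19.9 CPM in controls and at 4.76, 4.45 and 5.75 CPM in mutants. No mutant library overlapped its controls. With 2 controls and 3 mutants such separation, here and below, can arise without an effect, and its share over all genes was not counted. The log2 changes were -1.24 (SE 0.13, adjusted p 6.51e-05) in Insm1 mutants and -2.04 (SE 0.14, adjusted p 1.22e-06) in Tead1/2 mutants, by edgeR on UMI sums per library.

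Of the 10 members, 6 were called in Insm1 mutants, where 34.3% of 24356 genes were called, and 7 in Tead1/2 mutants, where 48.6% were. Hes1, a Notch target whose expression oscillates in neural progenitors, was at 3.12 and 5.38 CPM in Insm1 controls and 7.40, 6.60 and 7.73 CPM in mutants, and at 3.59 and 3.12 CPM in Tead1/2 controls and 7.35, 7.59 and 7.46 CPM in mutants. Id4 was at 13 and 16.3 CPM in Insm1 controls and 25.4, 26.3 and 25.8 CPM in mutants, and at 12.6 and 10.2 CPM in Tead1/2 controls and 15.1, 18.2 and 21.7 CPM in mutants. For both genes every mutant was above every control of its allele. The change of Hes1 in Insm1 mutants was 0.77 (adjusted p 0.00957 by edgeR), 0.41 (0.0395) without Insm1 control 1 and 1.2 (0.000204) without Insm1 control 2. In the Tead1/2 set it was 1.15 (0.000669). The call of Id4 in Tead1/2 mutants was lost without Tead1/2 control 2 (log2 change 0.55, adjusted p 0.0574 by edgeR, against 0.69 and 0.0038).

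Id2 fell by 0.58 (adjusted p 0.00423) and 0.77 (adjusted p 0.000474) on the log2 scale in Insm1 and Tead1/2 mutants by edgeR, and without Insm1 control 2 the former was -0.43 (adjusted p 0.051). Tcf3 fell by 0.27 and 0.54, from 66.3 and 66.5 to between 54.7 and 55.1 CPM and from 73.4 and 71.6 to between 47.8 and 52.4 CPM. Tcf4 fell by 0.26 and 0.51. Tcf12, the E-protein also called HEB, fell by 0.16 in Tead1/2 mutants (adjusted p 0.0254 by edgeR; 0.129 without Tead1/2 control 1, 0.0554 without mutant 2 and 0.0519 without mutant 3) and had a log2 difference of -0.09 in Insm1 mutants (adjusted p 0.214). Id1, Id3 and Hes5 were not called in either, and Hes5 was called in Insm1 mutants without Insm1 control 2 (0.87, adjusted p 0.0249 by edgeR). With the doublet caller's own threshold, which marked 23.5% to 58.9% of cells per library, Tcf3 in Insm1 mutants (-0.19, adjusted p 0.0732 by edgeR) and Tcf12 in Tead1/2 mutants (-0.13, adjusted p 0.137) were no longer called.

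Markers of other cell types moved with these sums. The 22 skeletal muscle genes summed to 67.0 to 94.8 CPM in the 4 controls, to 6346 to 7704 CPM in Insm1 mutants and to 14617 to 23481 CPM in Tead1/2 mutants. Granule progenitor markers summed to 2663 to 2936 CPM in controls and 1263 to 1714 CPM in mutants. Astroglial markers were at 1649 and 1901 CPM in Insm1 controls and between 2231 and 2360 CPM in mutants, and at 1530 and 1393 CPM in Tead1/2 controls and between 1620 and 1884 CPM in mutants. Their part in the member changes was not tested.

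Within the granule cell lineage at P7, cells of the clusters carrying granule progenitor and granule neuron markers, Hes1 rose, Id4 rose and Hey1 fell in both mutants. Hes1 was at 0.473 and 0.483 CPM in Insm1 controls and 4.08, 3.54 and 4.75 CPM in mutants, and at 0.705 and 0.635 CPM in Tead1/2 controls and 2.72, 4.57 and 4.09 CPM in mutants. These values rest on 18 to 39 Hes1 UMIs per control library and 55 to 109 per mutant library. The log2 changes were 3.08 (SE 0.26, adjusted p 3.77e-06) and 2.50 (SE 0.25, adjusted p 1.24e-05) by edgeR. With the doublet caller's own threshold they were 2.89 and 2.17, both still called.

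Hey1 was at 21.2 and 27.3 CPM in Insm1 controls and at 13.8, 11.9 and 10.9 CPM in mutants, and at 24.5 and 23.5 CPM in Tead1/2 controls and 6.78, 5.29 and 8.89 CPM in mutants. The groups of each allele did not overlap. The change was -0.98 (SE 0.17, adjusted p 0.00114 by edgeR) in Insm1 mutants and -1.78 (SE 0.17, adjusted p 1.06e-05) in Tead1/2 mutants. The difference between these effects was 0.80 (SE 0.25, unadjusted p 0.00715), with an adjusted p of 0.208 by edgeR, and is not a call. Without the filter on low counts it was 0.78 with an adjusted p of 0.000838 by edgeR, a call. That fit called more genes for this difference than the 188 of 17125 called with the filter. The size of the difference hardly moved, so the call depends on the filter.

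Id4 was at 1.05 and 1.40 CPM in Insm1 controls and at 3.05, 2.86 and 3.03 CPM in mutants, on 39 to 71 UMIs per library, and its change of 1.31 (SE 0.31, adjusted p 0.00841 by edgeR) dropped to 0.87 (adjusted p 0.192) with the doublet caller's own threshold, and to 1.08 (adjusted p 0.102) without Insm1 control 1. In the Tead1/2 set it was at 1.12 and 0.757 CPM in controls and 1.68, 3.86 and 3.39 CPM in mutants, a change of 1.65 (SE 0.31, adjusted p 0.00185 by edgeR) that was called at 1.88 under that threshold. Id1, a BMP target gene, was at 1.2 and 1.83 CPM in Insm1 controls and at 0.343, 0.674 and 0.389 CPM in mutants, on 68 and 81 UMIs in controls and 5 to 16 in mutants. Its change was -1.61 (SE 0.37, adjusted p 0.00722 by edgeR, and 0.0585 without Insm1 control 2). In the Tead1/2 set Id1 was at 1.84 and 1.98 CPM in controls and 1.09, 0.923 and 1.80 CPM in mutants, with a log2 difference of -0.58 (SE 0.30, adjusted p 0.192 by edgeR, and -0.93 with 0.0459 without mutant 3).

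Among the 8 of 10 members with enough counts to be tested in this lineage, 4 were called in each mutant, where 21.6% (Insm1) and 24.2% (Tead1/2) of 17125 genes were called. Id3 (4 to 17 UMIs per library) and Hes5 (2 to 8 UMIs per library) failed the low-count filter and were not tested there. Tcf4 fell by 0.24 (SE 0.08) in Tead1/2 mutants with an adjusted p of 0.0403 by edgeR, and the call was lost without Tead1/2 control 1 (adjusted p 0.172), control 2 (0.0968), mutant 2 (0.0992) or mutant 3 (0.0641). Tcf3, Tcf12 and Id2 were not called in either mutant; the log2 differences of Id2 were -0.40 (SE 0.17, adjusted p 0.122 by edgeR) and -0.45 (SE 0.17, adjusted p 0.0843). Id2 was called in both without the low-count filter (-0.46 with adjusted p 0.000464, and -0.48 with 0.000275) and with a replicate block (-0.45 with adjusted p 0.032, and -0.52 with 0.016), and in Tead1/2 mutants also without mutant 2 (-0.59, 0.0406). Of the 8 members, none was called for a difference between the 2 deletions' effects by edgeR or by DESeq2, where 1.10% of genes were by edgeR, and at an unadjusted p under 0.05 Hey1 differed, beside 10.5% of genes.

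**Figure D2:**
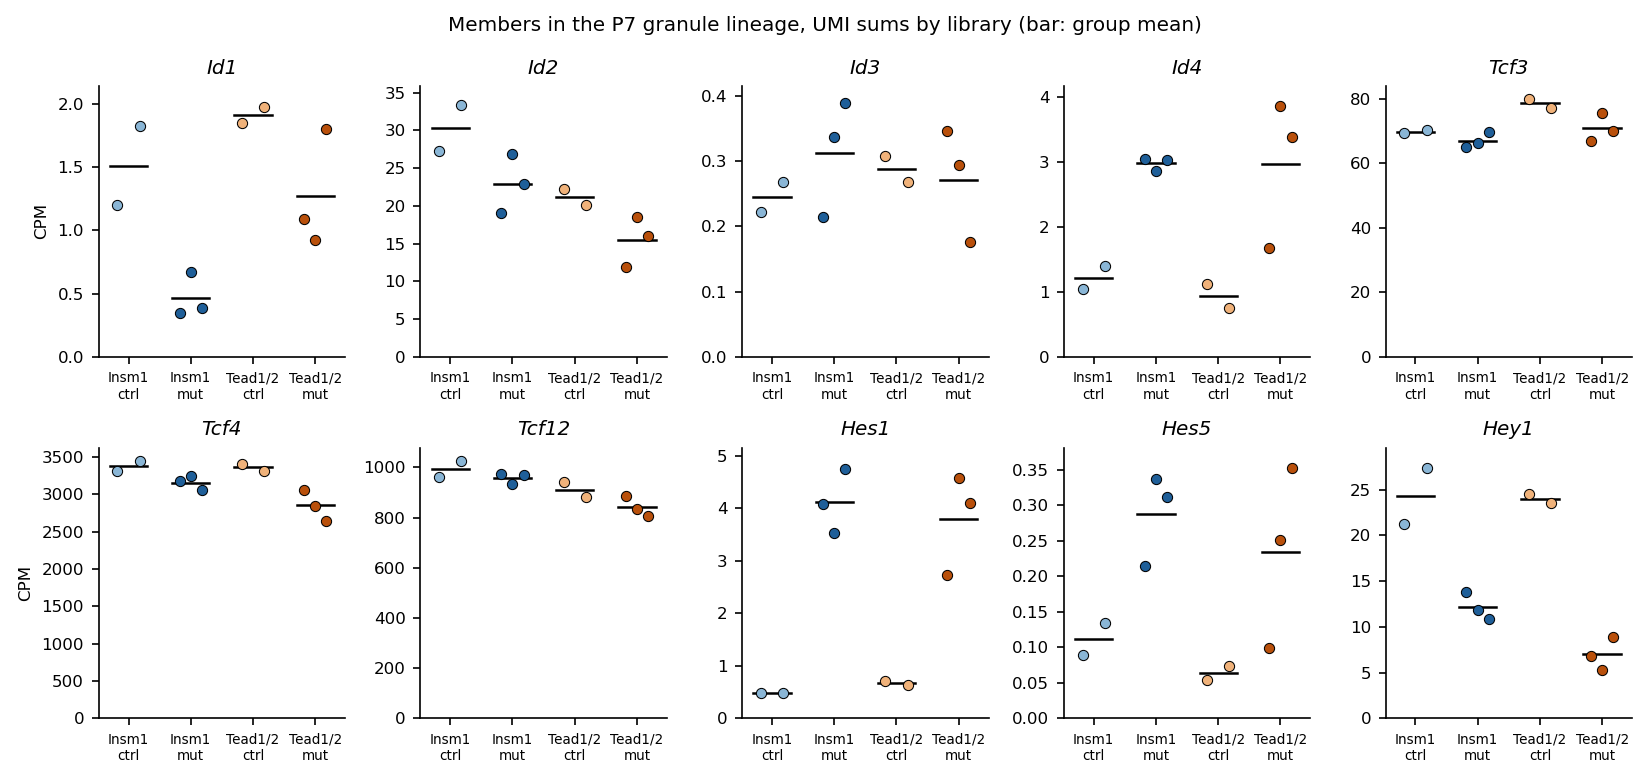
CPM of the 10 members in the granule cell lineage at P7, 1 panel per gene, with 1 point per library in 4 groups and a bar at the group mean. Hes1 is at 0.705 or less in all 4 controls and at 2.72 or more in all 6 mutants, and Hey1 is lower in each mutant than in the controls of its allele.

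The clusters that make up this lineage differed between controls and mutants. Clusters 4 and 5, with granule progenitor markers and with Otx1, Sfrp1 and Hey1 among their leading genes, held 30.6% to 41.3% of lineage cells in control libraries, 4.78% to 12.1% in Insm1 mutants and 6.27% to 15.4% in Tead1/2 mutants. Clusters 6 and 22, with Slit1, Bcl11b, Cdhr1 and Runx1t1 among their leading genes, held 0.0212% to 0.17% in controls and 37.2% to 54.2% in mutants. Over all libraries the muscle lineage gene Myod1 was at 24.3 and 25.9 CPM in clusters 6 and 22, and at 3.10 and 3.32 CPM in clusters 4 and 5. It was at 42.1, 26.2 and 23.8 CPM in the skeletal muscle-like clusters 7, 11 and 18 and at 33.2 CPM in the unnamed cluster 32, which carried muscle genes. Myog was at 10.3 and 13.8 CPM in clusters 6 and 22, beside 627, 254, 131 and 488 CPM in clusters 7, 11, 18 and 32. Clusters 2, 8 and 9 held 46.9% to 61.7% in controls and 6.23% to 19.2% in mutants, and clusters 1 and 10 held 0.552% to 1.75% in controls and 19.4% to 34.9% in mutants. The lineage sums above therefore compare different cell clusters. Within the lineage the 22 skeletal muscle genes summed to 69.8 to 91.8 CPM in controls, 195 to 231 CPM in Insm1 mutants and 383 to 678 CPM in Tead1/2 mutants. The 14 astroglial markers summed to 449 to 515 CPM in controls and 513 to 582 CPM in mutants. The part of either list in the member changes was not tested.

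Within clusters 4 and 5, Hey1 was at 40.1 and 49.5 CPM in Insm1 controls and at 44.4, 50.3 and 42.4 CPM in mutants, and the groups overlapped. In the Tead1/2 set it was at 40.7 and 41.1 CPM in controls and at 23.2, 34.1 and 48.5 CPM in mutants, so that mutants lay on both sides of the controls. These sums held 1494 to 2473 cells in control libraries and 75 to 467 in mutants. Over all libraries Hey1 was at 35.3 CPM in cluster 4 and at 51.8 CPM in cluster 5. Control libraries held 712 to 1218 cells of cluster 4 and 782 to 1255 of cluster 5. Mutant libraries held 23 to 142 and 52 to 325, and cluster 5 was a larger part of the sum in each mutant than in any control. Whether the mutant cells in these clusters carried the deletion was not tested. In clusters 6 and 22, found mainly in mutants, Hey1 was at 14.7, 12.8 and 14.2 CPM in Insm1 mutants and at 4.40, 4.88 and 6.67 CPM in Tead1/2 mutants, lower than in clusters 4 and 5 of the same library in all 6. Over all libraries Hey1 was at 12.5 CPM in cluster 6 and at 5.35 CPM in cluster 22. Insm1 mutant libraries held 568 to 1123 cells of cluster 6 and 276 to 450 of cluster 22, and Tead1/2 mutant libraries 309 to 545 and 743 to 977. Summed over clusters 2, 8 and 9, Hey1 was lower in every mutant (15.5 and 19.4 CPM in Insm1 controls against 8.0, 5.42 and 4.39 CPM, and 14.3 and 15.2 CPM in Tead1/2 controls against 4.81, 2.47 and 5.05 CPM). The makeup of that sum differed between groups. Cluster 2, in which the doublet caller marked 97.9% of cells, held 551 to 1384 cells per control library and 4 to 23 per mutant library, and its Hey1 was at 21.0 to 27.8 CPM in controls. In cluster 8 alone Hey1 was at 9.59 and 8.92 CPM in Insm1 controls and at 13.8, 8.41 and 0 CPM in mutants, which overlapped, and at 8.93 and 9.06 CPM in Tead1/2 controls and 6.64, 3.75 and 7.95 CPM in mutants, on 0 to 18 Hey1 UMIs per mutant library. Cluster 9 had 0 to 2 Hey1 UMIs per mutant library.

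Summed over clusters 6 and 22, Hes1 was higher than in clusters 4 and 5, clusters 2, 8 and 9, or clusters 1 and 10 of the same mutant libraries. In that sum it was at 7.79, 6.09 and 7.12 CPM in Insm1 mutants and at 5.10, 7.13 and 7.65 CPM in Tead1/2 mutants. Over all libraries Hes1 was at 3.86 CPM in cluster 6 (129 UMIs) and at 10.3 CPM in cluster 22 (291 UMIs). In clusters 4 and 5 it was at 0.894 and 0.661 CPM in Insm1 controls, at 3.96, 3.99 and 4.24 CPM in Insm1 mutants, at 1.47 and 1.44 CPM in Tead1/2 controls and at 1.81, 3.24 and 0 CPM in Tead1/2 mutants. Insm1 mutants lay above their controls there, and Tead1/2 mutants did not all do so. These values rest on 7 to 33 Hes1 UMIs per control library, on 9, 5 and 2 UMIs in the Insm1 mutants and on 5, 4 and 0 UMIs in the Tead1/2 mutants. In clusters 1 and 10 Hes1 did not pass 2.24 CPM in any library. No test was made on clusters, which were defined from the same cells.

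Id2 was lower in clusters 4 and 5 of every mutant (14.5, 16.8 and 12.7 CPM against 23.8 and 28.8 CPM in Insm1 controls, and 10.2, 11.4 and 11.1 CPM against 20.7 and 17.9 CPM in Tead1/2 controls). The mutant values rest on few cells, 75 in Insm1 mutant 3 and 176 in Tead1/2 mutant 2, and on 467 at most. Control libraries held 1494 to 2473 cells there. Clusters 6 and 22 of the same mutants had higher Id2 (20.8, 29.7 and 27.1 CPM, and 14.5, 21.8 and 19.5 CPM) than their clusters 4 and 5. Id4 in clusters 6 and 22 was at 2.63 to 3.51 CPM in Insm1 mutants and 2.09 to 4.44 CPM in Tead1/2 mutants. Tcf3 was at 92.8 to 100.4 CPM in clusters 4 and 5 of controls, at 82.3 to 121 CPM in those of mutants and at 77.4 to 89.6 CPM in clusters 6 and 22.

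In clusters 7 and 32, which carried muscle genes and were present in mutants, Id2 and Hey1 were lower and Tcf12 was higher than over all cells of the same libraries. Cluster 7, with Myog at 299 to 726 CPM, held 215 to 650 cells per mutant library. Id2 was at 2.18, 2.27 and 5.32 CPM in its Insm1 mutant libraries and 3.80, 2.50 and 2.86 CPM in its Tead1/2 mutant libraries, under every value of clusters 4 and 5 or 6 and 22. Hey1 was at 0.475 to 5.99 CPM, Id4 at 0 to 2.05 CPM, Hes1 at 0 to 1.13 CPM and Id1 at 0 to 0.545 CPM. Tcf12 was at 1468, 1396 and 1420 CPM in Insm1 mutants and 1360, 1348 and 1344 CPM in Tead1/2 mutants, above every whole-cerebellum value of any library (804 to 1042 CPM). The whole-cerebellum values carry TMM scaling and the cluster values do not. Over all libraries the unnamed clusters 16 and 19 also had Tcf12 at 1188 and 1183 CPM, with Id2 at 6.56 and 8.05 CPM. The interneuron-like cluster 13 had Id2 at 7.39 CPM and Hey1 at 2.89 CPM, with Tcf12 at 849 CPM. The granule neuron-like clusters 9 and 10 had Hey1 at 2.53 and 0.867 CPM. Their Id2 was at 34.4 and 27.5 CPM and their Tcf12 at 876 and 907 CPM. In the astroglial-like cluster 20 Tcf12 was at 1079 CPM, with Id2 at 56.2 CPM and Hey1 at 18.6 CPM. Low Hey1 alone, or high Tcf12 alone, was thus found in other clusters too.

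Cluster 32 held 84 to 492 cells per mutant library and had 21 of 22 muscle markers at over 1.5 times the mean over clusters and in over 10% of its cells. It stayed unnamed by the marker rule. Id2 was at 0 to 3.10 CPM there, Hey1 at 0 to 2.12 CPM, and Tcf12 at 1197, 1161 and 1252 CPM in Insm1 mutants and 1090, 1098 and 1036 CPM in Tead1/2 mutants. The other clusters with muscle genes, 11 and 18, did not show this pattern throughout. In cluster 18, with sarcomeric Myh8, Neb and Acta1, Tcf12 was at 870, 871 and 926 CPM in Insm1 mutants and 674, 760 and 677 CPM in Tead1/2 mutants, Id2 at 5.10 to 13.4 CPM and Hey1 at 2.13 to 6.96 CPM. In cluster 11 Tcf12 was at 999 to 1141 CPM, Id2 at 5.11 to 17.1 CPM and Hey1 at 5.73 to 10.9 CPM. Cluster 18 had Hes1 at 5.25 to 9.80 CPM and Id4 at 8.63 to 22.4 CPM, and the doublet caller marked 65.9% of its cells and 95.1% of cluster 11, against 3.39% in cluster 7 and 3.06% in cluster 32.

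**Figure D3:**
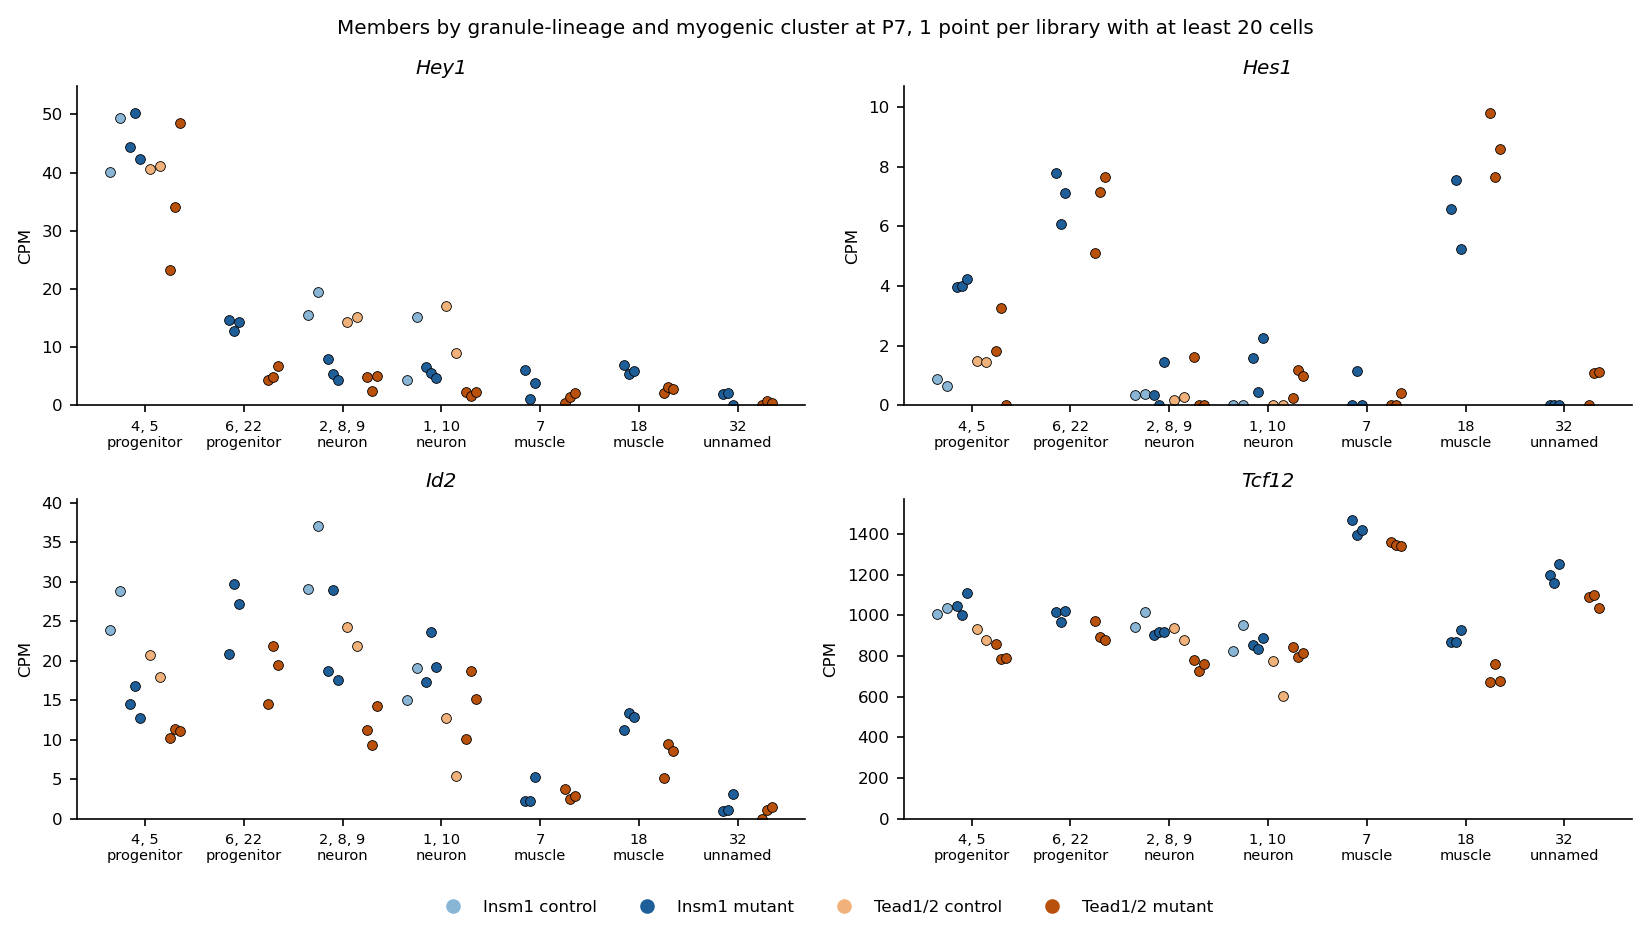
CPM of Hey1, Hes1, Id2 and Tcf12 in sets of granule lineage clusters and muscle-gene clusters at P7, with 1 point per library that had at least 20 cells. Hey1 is highest in clusters 4 and 5, Hes1 is at 5.10 or more in the sum of clusters 6 and 22 of every mutant, and in cluster 7 Id2 is at 5.32 or less while Tcf12 reaches 1468.

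In the class of clusters with astroglial markers at P7, Id4 and Hes1 were higher and Hey1 was lower in both mutants, and Id3 and Hes5 were higher in Insm1 mutants, but none of these calls held with the doublet caller's own threshold. Id4 was at 54.5 and 39.6 CPM in Insm1 controls and at 99.5, 107 and 78.8 CPM in mutants, and at 97.5 and 98.8 CPM in Tead1/2 controls and 149, 130 and 176 CPM in mutants. Hes1 was at 5.97 and 7.37 CPM in Insm1 controls and 12.8, 12 and 11.7 CPM in mutants, and at 13.2 and 10.5 CPM in Tead1/2 controls and 23.3, 15.6 and 19.9 CPM in mutants. Hey1 was at 17.4 and 21.4 CPM in Insm1 controls and 13.2, 10.9 and 10.3 CPM in mutants, and at 21.0 and 18 CPM in Tead1/2 controls and 12.1, 9.42 and 13.2 CPM in mutants. For these genes mutants did not overlap their own controls, a separation of 3 mutants from 2 controls whose share over all genes was not counted.

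The log2 changes in Insm1 mutants were 1.02 for Id4 (adjusted p 0.0006), 0.86 for Hes1 (0.00206), 0.84 for Id3 (0.00378), 0.68 for Hes5 (0.00794) and -0.77 for Hey1 (0.00256), by edgeR. In Tead1/2 mutants they were 0.63 for Id4 (adjusted p 0.0138), 0.67 for Hes1 (0.0161), -0.32 for Tcf4 (0.0106) and -0.78 for Hey1 (0.00589), by edgeR. Id3 (0.54, adjusted p 0.0547) and Hes5 (0.48, adjusted p 0.0897) had the same direction in Tead1/2 mutants by edgeR without passing the threshold, and whether the effects of the deletions differ was not tested in this class. Id3 passed it there by DESeq2 (adjusted p 0.0333), with a sex term (0.0273) and without Tead1/2 control 1 (0.0471) or mutant 2 (0.00721) by edgeR, and Hes5 without control 1 (0.0419) or mutant 2 (0.016). Without the low-count filter both passed it (0.00106 and 0.0489 by edgeR), as did Tcf4 in Insm1 mutants (-0.21, adjusted p 0.0293), which DESeq2 also called (0.00301). These were 5 of 10 members in Insm1 mutants, where 25.1% of 16841 genes were called, and 4 of 10 in Tead1/2 mutants, where 23.7% were. Single libraries moved several calls. Hes5 and Id3 were lost without Insm1 control 2 (adjusted p 0.0895 and 0.0592 by edgeR), and Hes5 also without Insm1 control 1 (0.0534). Id4, Tcf4 and Hey1 were lost without Tead1/2 control 1 (0.0972, 0.0561 and 0.0835). Id4 and Hes1 were lost without Tead1/2 control 2, where 1 control was left, or without mutant 3 (0.0562 and 0.0507 by edgeR). Without Tead1/2 mutant 2 the number called was 9 of 10. That fit called at most 4502 genes, the highest number over the leave-one-out fits, beside 3998 of 16841 genes with all libraries. With the doublet caller's own threshold no member was called in either mutant, although 172 and 396 of 11917 genes were, and 1 and 3 members had an unadjusted p under 0.05 by edgeR (beside 1475 and 1732 genes). Under it the change of Id4 in this class was 0.32 in Insm1 mutants and -0.016 in Tead1/2 mutants, and that of Hey1 -0.14 and 0.069.

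Markers of other cells and of the class itself moved with these values, and their part in the result was not tested. The 14 astroglial markers summed to 5636 and 4259 CPM in Insm1 controls and to 6747 to 7998 CPM in mutants, and to 8638 and 9048 CPM in Tead1/2 controls and 9614 to 13630 CPM in mutants. The mural list summed to 51.3 to 108 CPM in controls and 127 to 210 CPM in mutants. The skeletal muscle list summed to 52.8 to 57.2 CPM in control astroglial-like cells and 923 to 2557 CPM in mutants, and the granule neuron list to 7460 to 9907 CPM in controls and 4560 to 7487 CPM in mutants. The granule progenitor list, of the class in which Hey1 was highest, summed to 2277 to 2573 CPM in controls and 1202 to 1720 CPM in mutants. The doublet caller marked 98.5% of cluster 14 of this class, with a median of 30560 UMIs, and 26.1% of cluster 20. In cluster 20 alone Id4 was at 160 and 151 CPM in Insm1 controls and 255, 265 and 230 CPM in mutants, and at 194 and 208 CPM in Tead1/2 controls and 242, 303 and 309 CPM in mutants. Its Hey1 values overlapped between groups (19.7 and 21.9 CPM against 16.6 to 20.7 CPM with Insm1 loss, and 18.4 and 17.5 against 14.8 to 18.5 CPM with Tead1/2 loss).

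**Figure D4:**
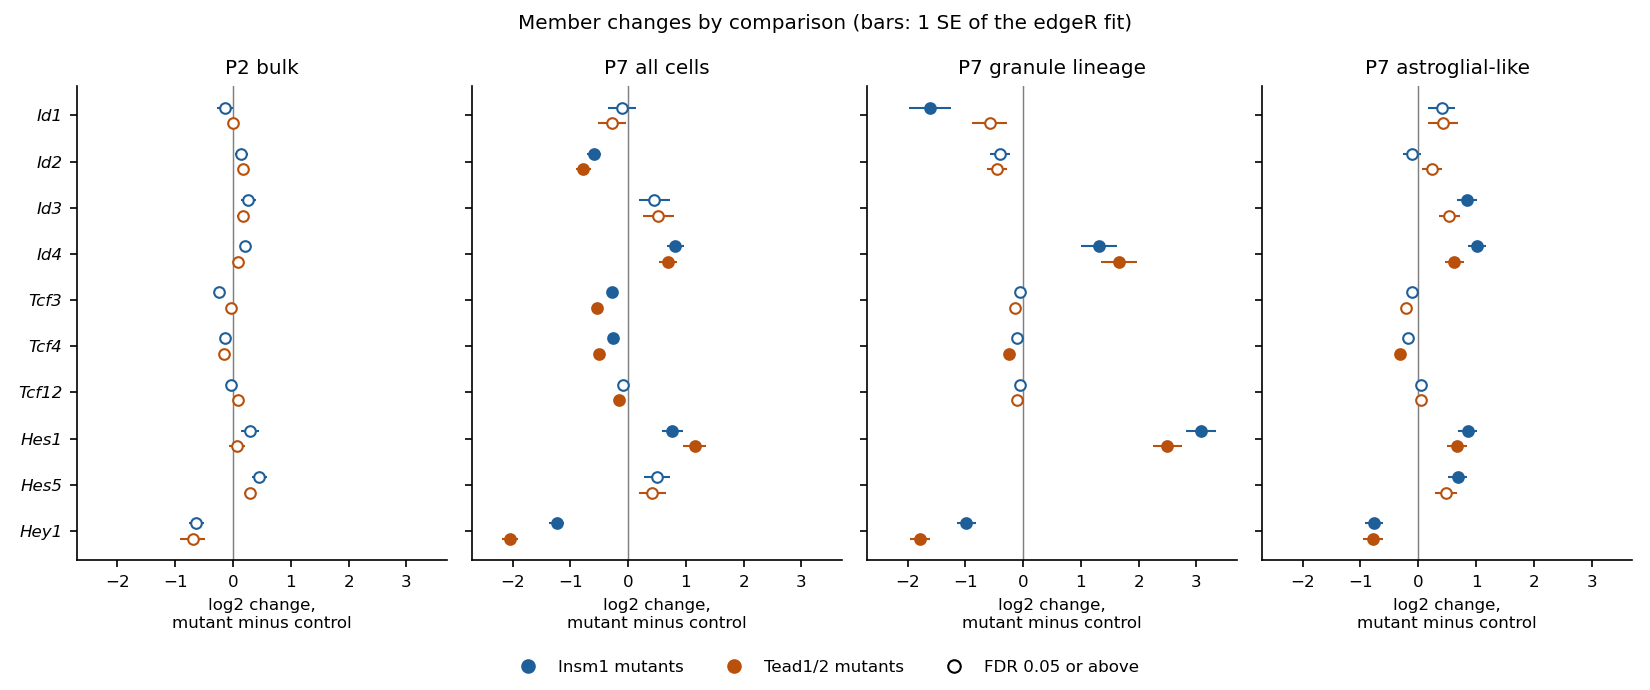
Log2 change of each member, mutant against control, with bars of 1 standard error, for P2 bulk tissue, all P7 cells, the P7 granule lineage and P7 astroglial-like cells. Filled points are called at an adjusted p under 0.05. Hey1 is below 0 in all 8 comparisons (with the doublet caller's own threshold it is 0.069 in Tead1/2 astroglial-like cells), and Id3 and Hes5 are absent from the granule lineage panel, where they failed the low-count filter.

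Across cell classes of the 4 control libraries, each member had its own distribution of levels, given here as mean CPM and SD with no test, since the classes are clusters of the same cells. Hey1 was at 42.8 ± 4.4 CPM (SD, n = 4) in granule progenitors, and the next class, ependymal or choroid-like cells, had 20.6 CPM over 3 libraries, without overlap. With the doublet caller's own threshold progenitors had 47.5 ± 4.3 CPM, astroglial-like cells 18.2 CPM and granule neurons 4.84 CPM. With only the highest scores left out, granule neurons had 16 CPM. Microglia-like cells had 15.2 CPM, and 0.861 CPM under the caller's own threshold.

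Tcf3 was also highest in granule progenitors, at 96.2 ± 3.3 CPM (range 92.7 to 100.4), and did not overlap with the next class, endothelial-like cells at 75.2 CPM, except with the doublet caller's own threshold (99.6 CPM, and 88.6 and 99.9 CPM in the 2 libraries with enough endothelial-like cells). Among the named classes Tcf4 was highest in GABAergic interneuron-like cells, at 3771 ± 65 CPM, followed without overlap by granule neurons at 3425 CPM. Over all libraries Tcf4 was at 4823 CPM in cluster 13 of the interneuron-like class, where the doublet caller marked 2.21% of cells. Clusters 12 and 17 of that class, with 98.3% and 97.8% marked, had 3715 and 3475 CPM. Tcf12 lay between 826 and 1060 CPM over the named classes. The unnamed cluster 19 had Tcf4 at 4688 CPM and Tcf12 at 1183 CPM over all libraries. Id2 had 34.8 CPM in Purkinje-like cells (2 libraries), 33.7 ± 3.5 CPM in astroglial-like cells and 27.9 ± 6.7 CPM in granule neurons, and these did not differ beyond their spread.

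Id4, Id3, Hes5 and Hes1 were low in the granule lineage and high in glia, ependymal or choroid-like cells or vessels. Id4 had 79.8 ± 12.8 CPM in ependymal or choroid-like cells (3 libraries), 72.1 ± 29.8 CPM in astroglial-like cells, which overlapped, and in the latter 250.4 ± 45.3 CPM with the doublet caller's own threshold, against 1.15 CPM or less in granule cells. Hes5 had 7.67 ± 1.8 CPM in astroglial-like cells (23.6 CPM under that threshold) and 1.84 CPM or less in the other named classes. Over all libraries it had 4.19 CPM in cluster 19, which was unnamed and left out of the order of classes. Id3 had 18.5 ± 2.3 CPM in endothelial-like and 17.2 ± 4.9 CPM in astroglial-like cells, which overlapped, and 0.259 CPM or less in granule progenitors and granule neurons (0.406 CPM in the class with mixed granule lineage markers). Hes1 had 24.5 ± 12.5 CPM in endothelial-like cells, 16.7 CPM in meningeal fibroblast-like cells and 1.11 CPM in granule progenitors. Id1 had 10.0 ± 2.8 CPM in endothelial-like and 6.34 ± 2.2 CPM in astroglial-like cells. It had 4.30 ± 0.75 CPM in the mixed granule lineage class, which overlapped with astroglial-like cells, and 1.55 CPM or less in granule neurons and progenitors. The highest class was the same under the doublet caller's own threshold for 5 of the 10 members, and with a floor of 2000 UMIs per cell for all 10.

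**Figure D5:**
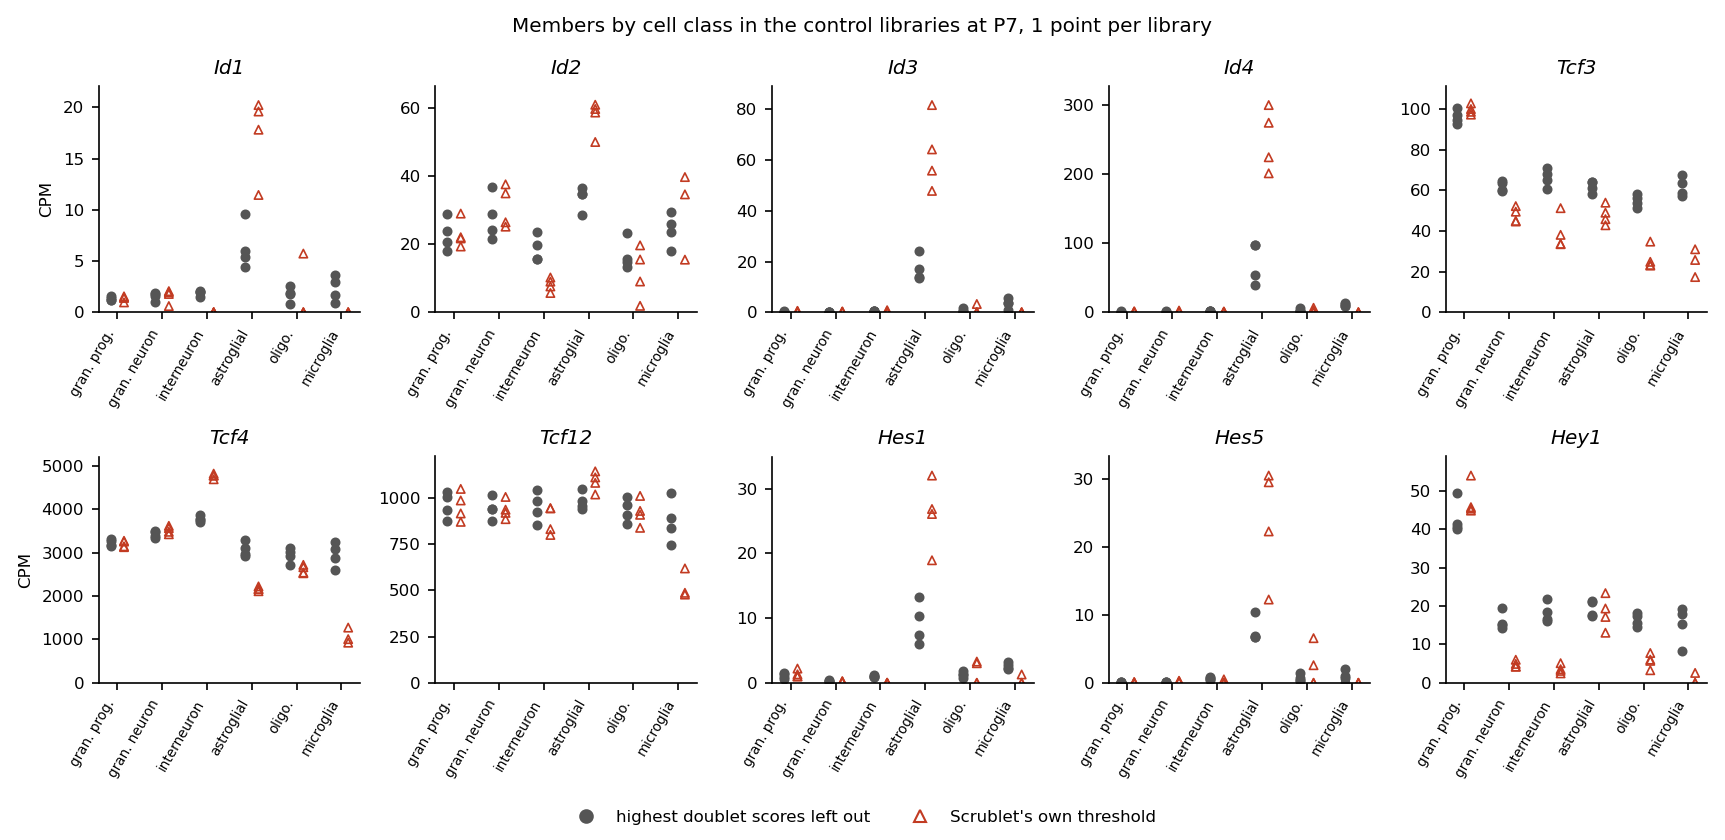
CPM of the 10 members in 6 cell classes of the control libraries at P7. Filled dots are the values with the highest doublet scores left out, and open triangles those with the doublet caller's own threshold. Hey1 and Tcf3 are highest in granule progenitors under both, and Id4 and Hes5 in astroglial-like cells are higher under the caller's own threshold.

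The genes whose levels were most like each member's were ranked by Pearson r of log2(CPM + 1) over 115 class-by-library sums from 13 classes, which share libraries and depth, as a description. Hey1 was most like Kcnh5 (0.78), Otx1 (0.76) and Celsr1 (0.76). Id4 was most like the astroglial gene Hopx (0.94), Clu and Ndrg2, and Id3 most like Nid1 (0.95). Hes1 was most like Adamts9 (0.91), Hes5 most like Msx2 (0.88) and Tcf12 most like its relative Tcf4 (0.74). Between members, r was 0.85 for Id3 and Hes1 and 0.79 for Id4 and Hes5.

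In the granule lineage at P7, the Notch list around Hes1, Hes5 and Hey1 had 10 genes higher and 3 lower of 24 tested in each mutant, where 13.3% of all genes were higher and 8.34% lower (Insm1), and 14.6% higher and 9.59% lower (Tead1/2). The medians were 0.27 and 0.16 on the log2 scale, beside 0.0072 and 0.0011 over all genes. The ligand gene Dll1 was at 0.443 and 0.51 CPM in Insm1 controls and 5.67, 7.45 and 6.3 CPM in mutants (log2 change 3.78), and the ligand gene Jag1 was at 3.83 and 3.92 CPM in controls and 34.9, 52.9 and 52.4 CPM in mutants (3.59). In Tead1/2 mutants they rose by 4.75 and 4.12. The receptor genes Notch1 (2.57 and 2.23) and Notch2 (1.27 and 1.2) and the Deltex gene Dtx4 (2.99 and 3.29) rose as well.

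On the lower side, Mfng, a Fringe glycosyltransferase that modifies Notch receptors, fell by 1.23 and 1.17, and the repressor gene Hey2 by 1.32 and 1.55 on the log2 scale. At P2 only Jag1 (0.80, adjusted p 0.010 by edgeR) and Mfng (-0.76, adjusted p 0.020) of 25 Notch genes tested were called in Insm1 mutants, where 0.689% of all genes were. In the Tead1/2 set Mfng was at 13.4 to 13.8 CPM in controls, 6.23 to 7.73 CPM in mutants 1 to 3 and 13.2 CPM in the library labelled mutant 4.

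The BMP and SMAD list, upstream of the Id genes, moved in both directions, with 4 higher and 4 lower of 21 tested in Insm1 mutants and 3 higher and 6 lower in Tead1/2 mutants (medians -0.02 and -0.11). Of all genes, 13.3% were higher and 8.34% lower in Insm1 mutants, and 14.6% and 9.59% in Tead1/2 mutants. The ligand gene Bmp6 rose by 2.38 and 2.03, and Fst, an activin and BMP antagonist, by 2.66 and 4.61 on the log2 scale. The inhibitory SMAD genes Smad6 (-0.69 and -1.61) and Smad7 (-0.46 and -0.79) fell. Bmp5 rose by 0.79 in Insm1 mutants and fell by 1.54 in Tead1/2 mutants, and this difference of 2.33 passed the test of the 2 deletions' effects.

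Of the tissue-restricted partners of the E-proteins, 2 rose and 3 fell of 12 tested in Insm1 mutants, and 4 rose and 4 fell in Tead1/2 mutants (medians 0.08 and 0.06). The shares over all genes were 13.3% higher and 8.34% lower (Insm1), and 14.6% higher and 9.59% lower (Tead1/2). Myod1, the muscle lineage factor, was at 2.16 and 2.17 CPM in Insm1 controls and 14.3, 16.3 and 20.1 CPM in mutants, and at 0.416 and 0.391 CPM in Tead1/2 controls and 7.67, 16 and 17.2 CPM in mutants. Atoh1 fell by 0.83 in Tead1/2 mutants and Nhlh1, a gene of newly postmitotic neurons, by 0.84 and 0.66. At P2, Myog rose (4.52) and Nhlh1 fell (-0.89) of 18 tested with Insm1 loss by edgeR, where 0.689% of all genes were called. Of 8 Groucho and ETO corepressor genes, 3 rose and 2 fell in Insm1 mutants and 2 rose and 2 fell in Tead1/2 mutants (medians -0.18 and -0.18), beside the P7 shares of all genes given above. Runx1t1 rose by 1.5 and 2.24 on the log2 scale, from 179 to 201 CPM in the 4 controls to between 513 and 951 CPM, and Tle4 by 0.44 and 0.43. Cbfa2t3 fell by 0.21 and 0.68. The effects on Runx1t1 (-0.74) and Cbfa2t3 (0.46) differed between the deletions, as Insm1 minus Tead1/2, by edgeR.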

How the data were processed

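P2 cerebella of single pups were profiled by stranded total RNA-seq, per the labels' protocols; the values deposited by the authors are expected counts from RSEM, rounded to whole numbers here. Trim Galore 0.6.3, STAR 2.7.9a, RSEM 1.3.3 and Seurat 4.4.0 are among the tools in the submitters' processing notes, which also name build GRCm38.p6. The P7 matrices, made with Parse Evercode WT v3 per the labels' protocols, were deposited as UMI counts per cell, and their gene tables name GRCm39. Columns were matched to samples by column name, since the alleles in the bulk tables' names and in their columns differed, and 92 ERCC rows were left out.

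Cells were kept with 1000 or more UMIs, 500 or more genes and under 15% mitochondrial counts, and cells with the highest Scrublet scores, at most 4% per library and 2.34% to 3.74% after ties were kept, were left out as doublets. Scrublet's own threshold marked 23.5% to 58.9% per library and served as an alternative. Clustering (scanpy 1.11.5, 2000 variable genes without the members, 30 components, 15 neighbours, Leiden resolution 1.0, no integration) gave 33 clusters, of which 3 stayed unnamed. A cluster was named from marker lists, by a rule set after its marker counts were seen.

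edgeR 4.0.16 quasi-likelihood tests (R 4.3.3; TMM scaling, filterByExpr, Benjamini-Hochberg, adjusted p under 0.05) were fitted to each P2 allele and to UMI sums of all 10 P7 libraries. DESeq2 1.42.0, other scalings and filters, a replicate block, a sex term and leaving out each library were alternatives, and the scripts were tested on simulated data. The P2 replicates are separate pups, and P7 libraries separate cerebella. Same-numbered libraries deviated together little or not at all, with the highest correlation, 0.228, for the P2 Insm1 pair numbered 4. Correlations were -0.132 to 0.228 at P2 and -0.117 to 0.0294 over all P7 cells. They were -0.124 to 0.0494 in the granule lineage and -0.164 to 0.0541 in astroglial-like cells. At P7 the 2 controls of an allele deviate from their mean as mirror images, so the values of numbers 1 and 2 are not separate checks. At P7, however, number 1 marks the dissection with all lobules, per the labels, and the block was that dissection; the Id2 calls it changes are given beside the result. The members, and the lists of pathways and markers, were chosen with earlier results of these data known. All 10 members were named throughout, with the targeted genes, at most 5 genes per direction of each pathway list by smallest adjusted p, and the 3 genes most like each member. The 13 ATAC-seq and 24 CUT&RUN samples were not analysed here.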

Additional observations from a re-analysis of the deposited data

Results flagged for a closer look

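Of 30 sets of 4 P2 libraries examined (each member in each group of 4), 3 held a library far from the others by Dixon's rule, which chance meets in about 1 in 20 groups. Hey1 in the library labelled Tead1/2 mutant 4 was at 66.0 CPM, with a gap to the nearest mutant of 0.834 of the group's range (critical value 0.829), and mutants 1 to 3 were at 30.8 to 36.6 CPM. Id1 in Insm1 control 4 was at 25.5 CPM (0.837), below the 33.4 to 34.9 CPM of the other controls. Id4 in Insm1 control 2 was at 74.1 CPM (0.879), above the 66.0 to 67.0 CPM of the other controls.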

How the results depend on the processing

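Over the alternatives, 1193 of 1298 member changes kept their direction and their side of the threshold, 31 lost a call, 31 gained one and 43 changed sign, of which 3 also lost a call (astroglial-like Id3 with Insm1 loss, and Id4 and Hey1 with Tead1/2 loss). DESeq2 called 312 genes and 2 members (P2 Insm1), 960 and 1 (P2 Tead1/2), 17 genes for the P2 difference of effects and 394 for the granule lineage difference. With no filter on low counts these were 212 genes and 1 member, 1287 and 2, 11 genes, and 759 genes and 1 member, and the P2 difference for Tcf4 changed sign to -0.025. With the doublet caller's own threshold, astroglial-like calls were 172 genes and 0 members (Insm1) and 396 and 0 (Tead1/2), and the highest class held for 5 of 10 members. Under it Id1 over all cells in Insm1 mutants became 0.0055, and astroglial-like differences changed sign for Id2 (0.0026) and Id3 (-0.031) with Insm1 loss and for Id1 (-0.065), Id4 (-0.016), Tcf3 (0.12), Tcf12 (-0.10), Hes5 (-0.058) and Hey1 (0.069) with Tead1/2 loss. A sex term, chosen at P7 after seeing the data, gave 88 (P2 Insm1), 3 (P2 Tead1/2) and 96 (granule difference) genes, Id1 at 0.048 (P2 Insm1) and Id2 at -0.014 (granule difference). By their Xist and Ddx3y counts the P2 Insm1 controls were all female, while mutants 1 and 2 were female and mutants 3 and 4 male. Both P7 Tead1/2 controls were female, mutants 1 and 2 were male and mutant 3 was female. Sex was thus partly confounded with genotype in these sets, and in the other sets both groups held both sexes. The cause of the changes under these alternatives was not tested.

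The replicate block gave 64 genes (P2 Insm1), 236 genes and 1 member, Hey1, at -0.99 (P2 Tead1/2) and 1 gene (P2 difference), with Id1 at -0.051 (P2 Tead1/2). No control shares the number of Tead1/2 mutant 4, so the block also takes that library out of both Tead1/2 contrasts at P2, and without it and with no block Hey1 was -0.99 too. Id2 in the granule lineage was called with the block (adjusted p 0.032 and 0.016 by edgeR). At P7 library number 1 is also the dissection with all lobules.

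Leaving out 1 library at a time, P2 Insm1 calls ranged from 64 to 132 genes. P2 Tead1/2 calls ranged from 0 to 646 genes and 0 to 1 members, with Hes1 from -0.045 to 0.22 and Id1 from -0.047 to 0.076. The P2 difference ranged from 0 to 8 genes, with Hey1 -0.068 to 0.35, Id2 -0.14 to 0.028, Id3 -0.046 to 0.18 and Tcf4 -0.026 to 0.064. Over all P7 cells calls ranged from 5826 to 7707 genes (Insm1, Id1 -0.43 to 0.28) and 8780 to 11750 genes and 6 to 7 members (Tead1/2). In the granule lineage they ranged from 2401 to 3418 genes and 3 to 4 members (Insm1), 2563 to 4524 genes and 3 to 4 members (Tead1/2) and 66 to 303 genes for the difference (Id2 -0.12 to 0.19, Tcf12 -0.0068 to 0.11). In astroglial-like cells they ranged from 2026 to 3518 genes and 3 to 5 members (Insm1, Tcf12 -0.045 to 0.049) and 2365 to 4502 genes and 2 to 9 members (Tead1/2, Tcf12 -0.0011 to 0.095). With 1 control left, its spread was taken from the other groups. In the granule lineage Id3 and Hes5 had too few counts to be tested.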
